A study of Mus musculus with 10 samples.

Results

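The 10 chemokine genes described here are Cxcl1, Cxcl2, Cxcl5, Ccl2, Ccl7, Cx3cl1, Ccl5, Cxcl10, Ccl20 and Cxcl12, followed through 8 RNA-seq libraries of mouse embryonic fibroblasts, connective tissue cells grown from embryos. They were taken by gene symbol from the 22552 genes listed, and 8 of them had a mean of at least 1 FPKM (fragments per kilobase of a transcript, after scaling each library to the same depth) over the 8 libraries, the level above which genes were tested, as did 10901 genes in all. The study asked how Cirbp and Rbm3, RNA-binding proteins induced by mild cold, act on the transcriptome. Polyadenylated RNA was sequenced from cells mock-transfected and kept at 32 °C, cells transfected with siRNA against Cirbp at 37 °C (siCirbp), cells transfected with siRNA against Rbm3 at 37 °C (siRbm3) and cells mock-transfected at 37 °C, with 2 libraries in each of the 4 groups. All were grown in serum-supplemented DMEM. The labels list no control siRNA, so each siRNA group differs from mock 37 °C by the presence of an siRNA as well as by its target. They do not say how long cells stayed at 32 °C, whether the 2 libraries of a group came from separate cultures, or whether the 2 siRNA libraries of a target used different siRNAs, so p-values measure only the spread between these libraries. A further 2 libraries, 1 for each FLAG-tagged protein stably expressed in such cells, mapped binding sites by PAR-CLIP at 37 °C after 16 h with 4-thiouridine at 100 µM.

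Chemokines are small secreted proteins that bind G protein-coupled receptors on leukocytes and direct their movement along a gradient. Fibroblasts make them when inflammatory signals reach NF-kB and interferon pathways, and several of their mRNAs carry AU-rich elements by which decay factors shorten their life. Cxcl1, Cxcl2 and Cxcl5 bind Cxcr2 and draw neutrophils, Ccl2 and Ccl7 bind Ccr2 and draw monocytes, and Cx3cl1 is made as a membrane-bound protein that Cx3cr1-bearing cells adhere to. Ccl5 and Cxcl10 draw T cells, Ccl20 draws cells with Ccr6, and Cxcl12, made by many stromal cells, binds Cxcr4 and the atypical receptor Cxcr7.

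The libraries held 25.1 to 28.2 M mapped fragments. Cirbp mRNA was at 34.5 and 37.2 FPKM in mock 32 °C libraries, 10.8 and 6.07 in siCirbp libraries, 13.8 and 23.8 in siRbm3 libraries and 15.9 and 17.1 in mock 37 °C libraries. Rbm3 mRNA was at 3.64 and 3.20 FPKM in mock 32 °C libraries, 5.54 and 7.55 in siCirbp libraries, 3.05 and 1.16 in siRbm3 libraries and 1.85 and 2.21 in mock 37 °C libraries. The siRbm3 label is therefore not borne out in replicate 1, which lies above both mock 37 °C libraries for Rbm3, so directions below hold for the libraries labelled siRbm3. Cirbp was lower in both siCirbp libraries than in either mock 37 °C library, a difference that did not pass the test (log2 fold change -0.94, limma adjusted p = 0.116, but 0.0481 without siRbm3 replicate 1 and 0.0478 without replicate 2). The 2 libraries of a group differed by a median of 0.107 (log2) over all tested genes in mock 32 °C, 0.261 in siCirbp, 0.313 in siRbm3 and 0.0879 in mock 37 °C. Of 10 fibroblast markers, 9 averaged at least 1 FPKM, while Thy1 was listed at 0 in all libraries. The summed level of the fibroblast markers was 6050 to 6953 FPKM in siCirbp and 9622 to 13890 FPKM in the other libraries. S100a4 and Vim, averaging 5451 and 2334 FPKM over all libraries, made up most of that sum. Col1a1, Col3a1, Vim, S100a4, Dcn and Fn1 were lower in both siCirbp libraries than in either mock 37 °C library. Col1a2, Pdgfra and Pdgfrb overlapped between these groups. T cell markers summed to at most 0.224 FPKM in any library, and Ptprc and Emr1, which define leukocytes and macrophages, were at or below 0.0317 FPKM, although Cd68, Cd14 and Cd74 were each above 1 FPKM in every library. In RNA from whole cultures, fewer cells of a type and less RNA per cell cannot be told apart.

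Promoter sequence, from RefSeq on GRCm38.p6, was at hand for 6 of the 10 genes, namely Cxcl1, Cxcl2, Cx3cl1, Cxcl10, Ccl20 and Cxcl12, and is shown as the 250 bases before the annotated start, 5′ to 3′ on the gene's own strand. Cxcl1 and Cxcl2 are shown first because they are neighbours on chromosome 5 that share a motif and lie far apart in mRNA level. Cx3cl1 and Cxcl12 are shown because both were lower at 32 °C. Capitals mark matches to the kappa B consensus and to the TATA-like words TATAAA and ATAAAA.
Cxcl1, chr5:90890995-90891244, plus strand: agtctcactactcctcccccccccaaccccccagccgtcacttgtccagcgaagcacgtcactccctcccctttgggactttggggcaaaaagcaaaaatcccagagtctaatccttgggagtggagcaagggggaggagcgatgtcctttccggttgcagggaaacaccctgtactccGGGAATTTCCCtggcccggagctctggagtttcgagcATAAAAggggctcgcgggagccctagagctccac
Cxcl2, chr5:90903649-90903898, plus strand: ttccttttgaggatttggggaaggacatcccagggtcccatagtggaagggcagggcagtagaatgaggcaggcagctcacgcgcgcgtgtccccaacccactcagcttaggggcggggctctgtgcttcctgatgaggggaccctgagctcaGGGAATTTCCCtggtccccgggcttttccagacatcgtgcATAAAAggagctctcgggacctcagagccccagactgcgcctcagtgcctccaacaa
Cx3cl1, chr8:94771930-94772179, plus strand: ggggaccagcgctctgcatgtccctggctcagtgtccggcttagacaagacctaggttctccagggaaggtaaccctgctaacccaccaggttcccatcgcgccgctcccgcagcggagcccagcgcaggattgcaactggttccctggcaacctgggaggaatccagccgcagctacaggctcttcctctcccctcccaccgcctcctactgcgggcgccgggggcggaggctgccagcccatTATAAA
Cxcl12, chr6:117168285-117168534, plus strand: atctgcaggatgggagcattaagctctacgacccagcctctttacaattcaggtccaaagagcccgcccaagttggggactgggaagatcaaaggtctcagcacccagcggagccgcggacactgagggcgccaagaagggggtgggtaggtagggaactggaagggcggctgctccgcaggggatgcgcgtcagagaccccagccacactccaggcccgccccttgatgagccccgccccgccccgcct
Matches were sought on both strands, except for the TATA-like words, sought on the gene's own strand, in the windows of these 6 genes and in 32851 RefSeq windows of the same length. The kappa B consensus matched in 7.25% of all windows, TATAAA in 7.59%, ATAAAA in 10.2%, and GGGCGG, the word of the Sp1 factor, in 32.7%. Cxcl1 and Cxcl2 both hold GGGAATTTCC, at -71 to -62 and at -97 to -88 from the start, overlapped by a second match on the other strand, and both hold ATAAAA downstream of it. That exact word, chosen after the windows were seen, occurs in 0.0852% of all windows, or 28 of them. Cxcl10, the interferon-induced ligand, holds 3 kappa B matches, 2 of them overlapping, along with a TGANTCA match of the kind AP-1 binds (6.75% of all windows) and GAAA followed after any 2 bases by GAAA, the core of interferon-response elements (2.98%). Ccl20 holds 1 kappa B match. Cx3cl1 holds TATAAA at -6 to -1 and 1 GGGCGG word. Cxcl12 holds 5 GGGCGG words and neither a kappa B match nor a TATA-like word in this window.

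The plot of every library gives the level of each of the 10 mRNAs by group. In mock 37 °C cells Cx3cl1 was the most abundant by FPKM, at 152 and 172, followed by Cxcl12, Cxcl1, Ccl2, Ccl7 and Cxcl5. The libraries of each of these neighbours in the order did not overlap. Below them Ccl5 and Cxcl10 overlapped, and Ccl20 and Cxcl2 came last. At 32 °C the order differed at the top, with Ccl2 and Cx3cl1 overlapping, then Cxcl12 and Cxcl1 overlapping. In siCirbp cells Cxcl1 stood beside Ccl7 with overlapping libraries. The summed level of the 10 genes was 295 and 313 FPKM in mock 32 °C libraries, 249 and 375 in siCirbp libraries, 362 and 343 in siRbm3 libraries and 374 and 412 in mock 37 °C libraries. Cx3cl1 alone made up 28.0% and 25.8% of that sum in mock 32 °C libraries, 49.9% and 46.8% in siCirbp libraries, 53.5% and 56.2% in siRbm3 libraries and 40.6% and 41.8% in mock 37 °C libraries.

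**Figure D1:**
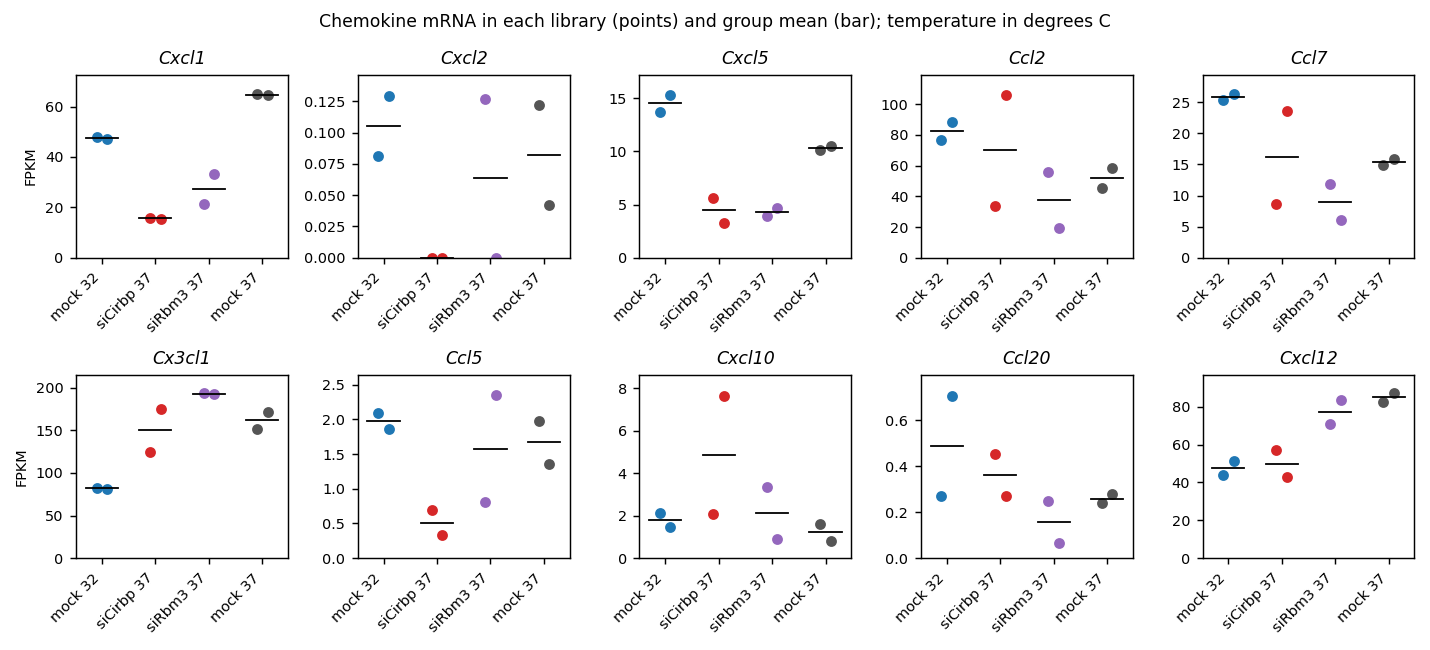
Level of each chemokine mRNA in FPKM (vertical axes, linear from 0, 1 scale per gene) in the 4 groups of 2 libraries. Points are libraries and bars are group means. Cxcl1 lies lowest in the siCirbp libraries, at 15.9 and 15.3 FPKM, and Cx3cl1 lies lowest in the mock 32 °C libraries, at 82.6 and 81.0 FPKM.

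The comparison of mock 32 °C with mock 37 °C asks what mild cold did to these mRNAs. Of the 8 tested genes, Cx3cl1 and Cxcl12 fell and none rose at a limma adjusted p under 0.05, beside 32.8% of all tested genes called in either direction (19.8% lower, 13% higher), so 2 of 8 is near the background. The libraries of 6 of the 8 genes did not overlap, against 84.9% of all tested genes. The median log2 fold change was 0.26 over the 8 genes and -0.02 over all tested genes. Centring the libraries on their medians moved the median of all genes up by 0.125 (log2), with 2110 genes higher and 1721 lower in place of 1420 and 2153, and quantile normalisation gave 1893 and 1994. Neither changed the direction or the call of any of the 8 genes at 32 °C. With only the 4 mock libraries in the fit, Cxcl1 (limma adjusted p = 0.00208), Cxcl5 (0.00144), Ccl2 (0.00153) and Ccl7 (6.7e-05) passed as well. In that fit 7557 of all 10901 tested genes passed, so 6 of 8 is near the background there too.

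Comparing siCirbp with mock 37 °C asks which mRNAs differed in cells given the Cirbp siRNA. It cannot tell loss of Cirbp from the presence of an siRNA, or from the higher Rbm3 mRNA of both siCirbp libraries. Cxcl1 and Cxcl5 fell and none of the 8 rose, beside 3.39% of all tested genes called (0.624% lower, 2.77% higher). The 10 genes were chosen with earlier results of these data known, so no excess over that background is read from 2 of 8. With the replicate number as a block, 0 of the 8 were called. With no filter, or with only the 2 compared groups in the fit, 1 was called. The libraries of 5 of the 8 genes did not overlap, against 60.4% of all tested genes. The median log2 fold change was -0.45 over the 8 genes and 0.08 over all. The split of 302 genes higher and 68 lower became 280 and 124 under quantile normalisation and 49 and 43 with the length trend removed.

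In siRbm3 against mock 37 °C, limma called 0 of the 8 genes, with 0% of all tested genes called. At an unadjusted p under 0.05 there were 2 of the 8, Cxcl1 and Cxcl5, and 1451 of 10901 genes. The libraries of 4 of the 8 genes did not overlap, against 50.5% of all tested genes. The median log2 fold change was -0.39 over the 8 genes and 0.12 over all. In the direct comparison of siCirbp with siRbm3, limma called 0 of the 8 genes, beside 0.0367% of all tested genes (4 genes), while 3 of the 8 and 1654 of all had an unadjusted p under 0.05, and 4 of the 8 did not overlap, against 36.3% of all. All 3 comparisons with mock 37 °C share its 2 libraries.

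**Figure D2:**
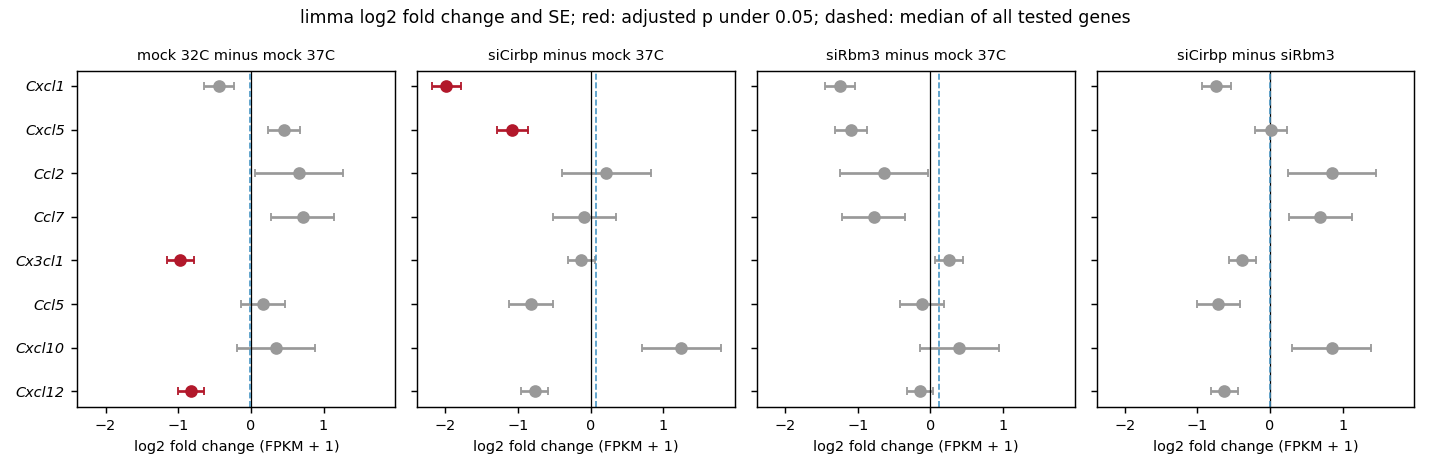
Log2 fold change of FPKM + 1 (horizontal axis) with its SE from limma, for the 8 tested chemokines in 4 comparisons. Red points have an adjusted p under 0.05 and the dashed line is the median of all 10901 tested genes. Cx3cl1 and Cxcl12 are red at 32 °C, Cxcl1 and Cxcl5 in siCirbp, and none in the other 2 comparisons.

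Among the ligands of Cxcr2, Cxcl1 (mm9, chr5:91320271-91322141, 1 transcript) was at 48.1 and 46.9 FPKM in mock 32 °C libraries, 15.9 and 15.3 in siCirbp libraries, 21.3 and 33.4 in siRbm3 libraries and 64.8 and 64.5 in mock 37 °C libraries. Every siCirbp, siRbm3 and mock 32 °C library was below both mock 37 °C libraries, and both siCirbp libraries were the lowest of all 8. The siCirbp mean was 0.241 times the mock 37 °C mean, a log2 fold change of -1.98 with an SE of 0.20 (limma adjusted p = 0.0211), and Cxcl1 ranked 7 by p among the 10901 genes. In siRbm3 the ratio of means was 0.423 (log2 fold change -1.25, adjusted p = 0.239), and between siCirbp and siRbm3 the log2 fold change was -0.74 (adjusted p = 0.231). At 32 °C it was -0.44 (adjusted p = 0.137). The siCirbp call was lost without mock 37 °C replicate 1 or 2 (adjusted p = 0.181 and 0.148), mock 32 °C replicate 1 or 2 (0.0736 and 0.0739) or siCirbp replicate 2 (0.0636), though the log2 fold change stayed between -2.01 and -1.96 over all single libraries left out. Without siRbm3 replicate 1 or 2 the siRbm3 difference passed (log2 fold change -0.93, adjusted p = 0.00865, and -1.56, adjusted p = 0.0137), and so did the difference at 32 °C (0.0146 without either). The difference at 32 °C also passed with the length trend removed (-0.75, 0.0185). Without siRbm3 replicate 1, that of siCirbp from siRbm3 passed as well (-1.05, adjusted p = 0.00462).

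Cxcl5 (chr5:91188325-91190651), a second neutrophil attractant in the same stretch of chromosome 5, was at 13.7 and 15.3 FPKM in mock 32 °C libraries, 5.66 and 3.32 in siCirbp libraries, 3.96 and 4.65 in siRbm3 libraries and 10.1 and 10.5 in mock 37 °C libraries. Both libraries at 32 °C were above, and all 4 siRNA libraries below, both mock 37 °C libraries, while siCirbp and siRbm3 overlapped. The log2 fold change against mock 37 °C was -1.08 with an SE of 0.22 in siCirbp (limma adjusted p = 0.0476), -1.09 in siRbm3 (0.350) and 0.45 at 32 °C (0.148). Between siCirbp and siRbm3 it was 0.02 (SE 0.22, adjusted p = 0.977). The siCirbp call was lost without mock 37 °C replicate 1 or 2 (0.351 and 0.282), mock 32 °C replicate 1 or 2 (0.126 each) or siCirbp replicate 2 (0.0885, log2 fold change -0.76). It was also lost with a pseudocount of 0.1 (0.0546), with no filter on low levels (0.0819), with the highest transcript of each gene alone (0.0583) or with only the 2 compared groups in the fit (0.0921). The difference at 32 °C passed without siCirbp replicate 1 (0.0420) or 2 (0.0415).

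Cxcl2 (chr5:91332925-91334964), whose promoter shares the GGGAATTTCC word with that of Cxcl1 shown above, was close to the limit of detection. It had 2 and 3 reads in mock 32 °C libraries, 0 and 0 in siCirbp libraries, 3 and 0 in siRbm3 libraries and 3 and 1 in mock 37 °C libraries. Since a count of 0 allows up to 3 reads, or 0.122 to 0.137 FPKM for this gene, no difference between groups was detectable. This limit covers counting error only. Cxcl1, with the same word, had 317 to 1352 reads per library.

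Of the monocyte attractants, Ccl2 (chr11:81849079-81850954) was at 76.8 and 88.5 FPKM in mock 32 °C libraries, 34.0 and 106 in siCirbp libraries, 55.6 and 19.3 in siRbm3 libraries and 45.6 and 58.7 in mock 37 °C libraries. Both 32 °C libraries were above both mock 37 °C libraries, but the 2 siCirbp libraries differed 3.12-fold and lay on either side of them, and the siRbm3 libraries differed 2.88-fold and overlapped them. No comparison passed in the fit of all 4 groups, the log2 fold change being 0.66 at 32 °C with an SE of 0.61 (limma adjusted p = 0.436), 0.21 in siCirbp (0.868) and -0.64 in siRbm3 (0.618). That SE rests on the spread within all 4 groups, whereas the mock libraries differed 1.15-fold at 32 °C and 1.29-fold at 37 °C. With only the mock libraries in the fit the difference at 32 °C passed, as did most tested genes. The sign in siCirbp turned without siCirbp replicate 2 (log2 fold change -0.59) and that in siRbm3 without siRbm3 replicate 2 (0.10).

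Ccl7 (chr11:81859214-81861025), the next chemokine gene along chromosome 11 among the 10, was at 25.4 and 26.2 FPKM in mock 32 °C libraries, 8.63 and 23.7 in siCirbp libraries, 11.9 and 6.07 in siRbm3 libraries and 14.9 and 15.9 in mock 37 °C libraries. It was high at 32 °C, low in both siRbm3 libraries and on either side of mock 37 °C in siCirbp. The 2 siCirbp libraries differed 2.74-fold and the 2 siRbm3 libraries 1.96-fold, each pair in the same direction as for Ccl2. The log2 fold change was 0.71 at 32 °C (SE 0.44, limma adjusted p = 0.243), -0.09 in siCirbp (0.933) and -0.78 in siRbm3 (0.443), so none passed in the fit of all 4 groups. As for Ccl2, the difference at 32 °C passed with only the mock libraries in the fit. Without siCirbp replicate 1 the value in siCirbp was 0.59. Over the 8 libraries, which fall into 4 groups, log2(FPKM + 1) of Ccl2 and Ccl7 had a Pearson r of 0.95, given as a description, and that of Cxcl1 and Cxcl5 0.81.

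Cx3cl1 (chr8:97296080-97306326, 3143 nt), also called fractalkine, was at 82.6 and 81.0 FPKM in mock 32 °C libraries, 124 and 175 in siCirbp libraries, 194 and 193 in siRbm3 libraries and 152 and 172 in mock 37 °C libraries. The 32 °C libraries were the lowest of the 8, the siRbm3 libraries the highest, and siCirbp overlapped mock 37 °C. The mean at 32 °C was 0.506 times that of mock 37 °C, a log2 fold change of -0.97 with an SE of 0.19 (limma adjusted p = 0.0097). In siCirbp it was -0.13 (0.726, and 0.12 without siCirbp replicate 1) and in siRbm3 0.26 (0.528). The call at 32 °C was lost without mock 32 °C replicate 1 or 2 (0.0626 and 0.0845) or mock 37 °C replicate 1 or 2 (0.0582 and 0.0929), with the log2 fold change between -1.06 and -0.88. It had the most reads of the 10 genes, with 6317 to 15383 reads per library.

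The T cell attractants were scarce. Ccl5 (chr11:83339281-83344020) was at 2.10 and 1.87 FPKM in mock 32 °C libraries, 0.69 and 0.33 in siCirbp libraries, 0.80 and 2.34 in siRbm3 libraries and 1.98 and 1.36 in mock 37 °C libraries. Both siCirbp libraries lay below both mock 37 °C libraries, on 6 and 3 reads against 18 and 12, and siRbm3 straddled them. The log2 fold change in siCirbp was -0.82 with an SE of 0.30 (limma adjusted p = 0.153), which passed without siRbm3 replicate 1 or 2 (0.0379 and 0.0384). At 32 °C it was 0.17 (0.696) and turned to -0.25 when the dependence of fold changes on transcript length was removed, and to -9.4e-04 without mock 37 °C replicate 2. In siRbm3 it was -0.11 (0.868), and it was 0.056 without mock 37 °C replicate 1 and 0.33 without siRbm3 replicate 1. Between siCirbp and siRbm3 it was -0.71 (0.326), which passed without siRbm3 replicate 1 (-1.16, adjusted p = 0.0197).

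Cxcl10 (chr5:92775667-92777880) was at 2.12 and 1.45 FPKM in mock 32 °C libraries, 2.09 and 7.65 in siCirbp libraries, 3.37 and 0.88 in siRbm3 libraries and 1.62 and 0.81 in mock 37 °C libraries. siCirbp replicate 2 stood apart with 184 reads, against 48 in replicate 1, and both were above mock 37 °C. The log2 fold change in siCirbp was 1.25 with an SE of 0.54 (limma adjusted p = 0.212), and it was 1.99 without siCirbp replicate 1 and 0.50 without replicate 2. At 32 °C it was 0.34 (0.652) and in siRbm3 0.40 (0.731), a value that turned to -0.21 without siRbm3 replicate 1. Ccl20 (chr1:83113341-83115742), below the level tested, had 0.27 and 0.71 FPKM in mock 32 °C libraries, 0.45 and 0.27 in siCirbp libraries, 0.25 and 0.07 in siRbm3 libraries and 0.24 and 0.28 in mock 37 °C libraries. These rest on 1 to 11 reads per library.

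Cxcl12 was at 44.2 and 51.3 FPKM in mock 32 °C libraries, 57.2 and 42.7 in siCirbp libraries, 71.2 and 83.5 in siRbm3 libraries and 82.7 and 87.5 in mock 37 °C libraries. The 32 °C and siCirbp libraries were all below both mock 37 °C libraries, whereas siRbm3 overlapped them. At 32 °C the mean was 0.561 times that of mock 37 °C, a log2 fold change of -0.82 with an SE of 0.18 (limma adjusted p = 0.0151). In siCirbp the log2 fold change was -0.77 with an SE of 0.18 (adjusted p = 0.0642), in siRbm3 -0.14 (0.719) and between siCirbp and siRbm3 -0.63 (0.238). The call at 32 °C was lost without mock 32 °C replicate 1 or 2 (0.102 and 0.0808) or mock 37 °C replicate 1 or 2 (0.0858 and 0.113). The siCirbp difference passed without siCirbp replicate 1 (0.0405) or siRbm3 replicate 1 or 2 (0.0352 and 0.0351). It also passed after quantile normalisation (0.0302) or removal of the length trend (0.0396).

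Cxcl12 is the only one of the 10 with more than 1 transcript of appreciable level, which bears on the study's interest in alternative polyadenylation. In mm9 its 3 transcripts start together on chromosome 6 at 117118553. The 1878 nt transcript ends at 117125087, while those of 3173 and 5670 nt both end at 117131386. The 1878 nt transcript made up 76.4% ± 0.12 of Cxcl12 FPKM in mock 32 °C, 78.9% ± 5.5 in siCirbp, 76.7% ± 0.48 in siRbm3 and 75.1% ± 0.67 in mock 37 °C (SD, n = 2 each). In FPKM it was at 33.8 and 39.1 in mock 32 °C libraries, 47.4 and 32.0 in siCirbp libraries, 54.8 and 63.7 in siRbm3 libraries and 61.7 and 66.1 in mock 37 °C libraries. The 3173 nt transcript was at 7.16 and 8.89 FPKM in mock 32 °C libraries, 7.42 and 6.64 in siCirbp libraries, 9.21 and 14.3 in siRbm3 libraries and 15.6 and 14.8 in mock 37 °C libraries. Both were thus lower at 32 °C and in siCirbp than in mock 37 °C. Tested by limma as a log2 ratio to the other transcripts of the gene, the 1878 nt share differed by 0.06 at 32 °C (SE 0.32, adjusted p = 0.944) and by 0.29 in siCirbp (SE 0.32, adjusted p = 0.719). Neither the 1878 nt nor the 3173 nt share passed in any comparison. The 5670 nt transcript, averaging under 10% of Cxcl12 FPKM, was not tested. Of the 2936 transcripts whose share was tested, 0.238% passed at 32 °C and 0% in the other comparisons.

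**Figure D3:**
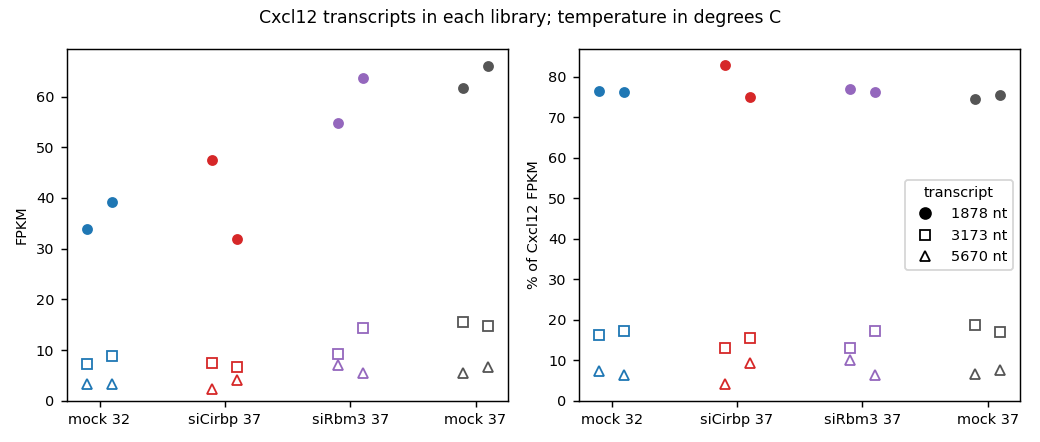
The 3 Cxcl12 transcripts in each library, as FPKM (left) and as percent of Cxcl12 FPKM (right), by group. Filled circles are the 1878 nt transcript and open symbols the 3173 and 5670 nt transcripts. Levels of the 1878 nt transcript are lower at 32 °C than in mock 37 °C, while its share averages 76.4% at 32 °C and 75.1% in mock 37 °C.

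No PAR-CLIP site of either protein, mapped at 37 °C only, overlapped any of the 10 genes, out of 1941 Cirbp and 2118 Rbm3 sites, nor did any lie within 1 kb of them. Among all tested genes 8.32% held a Cirbp site and 8.79% an Rbm3 site, and among genes averaging at least 20 FPKM 13.2% and 11.1%. These shares count sites over whole gene spans and were not matched to the 10 genes for length. The absence of sites is therefore not read as below the background. With 1 library per protein there is no replicate check, and Ccl20 and Cxcl2 had at most 11 and 3 reads per RNA-seq library. The remaining chemokine ligands above the filter held no site either.

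Of all 41 chemokine ligands listed, the 10 included, 14 were above the filter and 12 were at 0 in every library. At 32 °C 4 of the 14 rose and 2 fell, beside 13% higher and 19.8% lower of all tested genes, and all 4 that rose lie outside the 10. The 10 genes and the list were chosen with earlier results known, so no contrast between the 10 and the other ligands is read from these counts. Ccl9, a mouse CC chemokine that binds Ccr1, was at 13.3 and 15.6 FPKM at 32 °C, against 2.78 and 2.98 FPKM in mock 37 °C (log2 fold change 1.99, SE 0.17, limma adjusted p = 0.00136). Ccl17, the ligand of Ccr4, was at 48.6 and 56.0 FPKM at 32 °C, against 12.0 and 13.9 FPKM in mock 37 °C (1.94, adjusted p = 0.00222). Ppbp, a further ligand of Cxcr2, was at 20.2 and 23.7 FPKM at 32 °C, against 3.79 and 4.41 FPKM in mock 37 °C (2.17, adjusted p = 0.00364), and the call was lost without mock 32 °C replicate 2 (0.0504). Ccl25, the ligand of Ccr9, had a log2 fold change of 0.82 (adjusted p = 0.0141), with the call lost without mock 32 °C replicate 1 or 2 (0.0576 and 0.126) or mock 37 °C replicate 1 or 2 (0.0618 and 0.12). With the highest transcript alone its log2 fold change was 0.47 (0.0827) and with the length trend removed 0.53 (0.0865). Ccl8 and Ccl27a did not pass in any comparison in the fit of all 4 groups, and Ccl27a has near-identical copies in the genome that make its counting uncertain. At 32 °C Ccl27a passed with the length trend removed (log2 fold change -0.96, limma adjusted p = 0.0218) or with only the mock libraries in the fit (-0.59, 0.00151). The log2 fold change of Ccl8 at 32 °C was 0.41 and turned to -0.015 with the length trend removed. In siCirbp none of these 6 passed, with log2 fold changes from -0.97 to 0.51 (limma, smallest adjusted p = 0.108), although Ccl17 passed without siRbm3 replicate 1 (0.0328) or 2 (0.0327). In siRbm3 they ran from -0.36 to 0.17 (smallest adjusted p = 0.565). Of all tested genes, 3.39% were called in siCirbp and 0% in siRbm3.

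**Figure D4:**
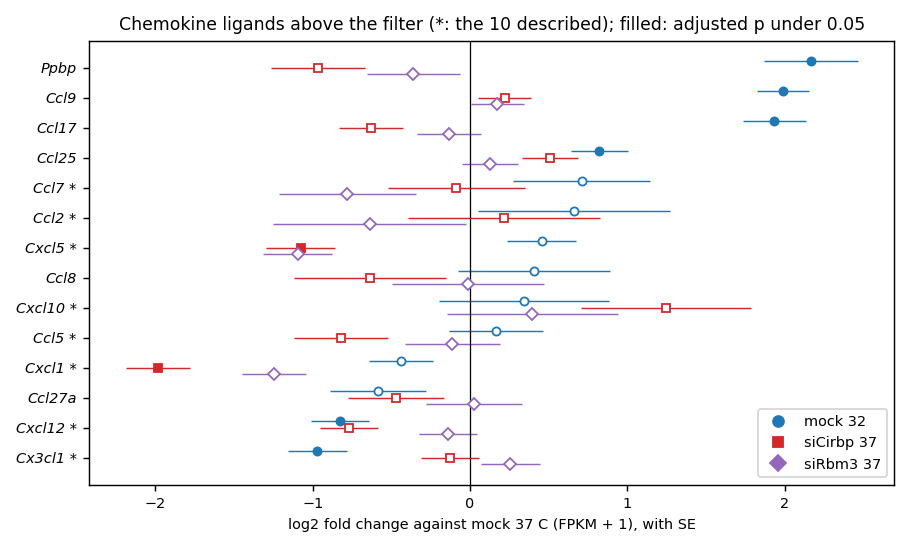
Log2 fold change of FPKM + 1 against mock 37 °C with its SE (horizontal axis) for the 14 chemokine ligands above the filter, at 32 °C (circles), in siCirbp (squares) and in siRbm3 (diamonds). Filled symbols have a limma adjusted p under 0.05 and asterisks mark the genes described one by one. Ppbp, Ccl9 and Ccl17 lie furthest to the right at 32 °C, and Cxcl1 furthest to the left in siCirbp.

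Of 23 chemokine receptors listed, only Cxcr7, the atypical receptor that takes up Cxcl12, averaged at least 1 FPKM. It was at 13.6 and 18.2 FPKM in mock 32 °C libraries, 9.97 and 2.70 in siCirbp libraries, 8.20 and 39.9 in siRbm3 libraries and 24.9 and 27.7 in mock 37 °C libraries. The siRbm3 libraries lay on either side of mock 37 °C and the others below it. No comparison passed in the fit of all 4 groups (siCirbp log2 fold change -2.10, SE 0.78, limma adjusted p = 0.176). With only the mock libraries in the fit, Cxcr7 passed at 32 °C (-0.70, adjusted p = 0.00116), as did 7557 of all tested genes. Cxcr2, Cx3cr1 and Cxcr4, the receptors of the ligands described above, were each at or below 0.0927 FPKM, and Ccr2 was listed at 0 in all libraries.

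Genes that act on chemokine mRNAs or proteins were read from lists in the same fit. Of 18 genes tied to mRNA decay at AU-rich and stem-loop elements, 10 fell and none rose at 32 °C, beside 19.8% lower and 13% higher of all tested genes. Not all of the 18 promote decay, so the count gives no direction for decay activity. The median log2 fold change was -0.60 over the list and -0.02 over all tested genes. Zfp36, which binds AU-rich elements and shortens the life of chemokine mRNAs, was at 8.37 and 7.69 FPKM in mock 32 °C libraries, 11.3 and 11.7 in siCirbp libraries, 10.9 and 19.3 in siRbm3 libraries and 33.6 and 35.5 in mock 37 °C libraries. All 6 were below mock 37 °C, and Zfp36 fell at 32 °C (log2 fold change -1.98, limma adjusted p = 0.00276) and in siCirbp (-1.50, adjusted p = 0.0286). Khsrp, another decay factor, fell at 32 °C (-1.36, adjusted p = 0.00221), as did Zfp36l2 (-0.90, adjusted p = 0.0101) and Pcbp1 (-0.83, adjusted p = 0.0112), and in siCirbp Hnrnpd, which binds AU-rich elements, rose (0.81, adjusted p = 0.0488). Of these 18 genes 10 held a Cirbp PAR-CLIP site and 8 an Rbm3 site, beside 8.32% and 8.79% of all tested genes. Among genes averaging at least 20 FPKM the shares were 13.2% and 11.1%. Sites were counted over the whole span of a gene, and the lists were not matched for its length. Of the NF-kB list below 1 of 27 genes held a Cirbp site and 0 an Rbm3 site, of the interferon list 1 and 0 of 24, of the glycosaminoglycan and protease list 3 and 4 of 18, and of the other secreted factors 0 of 11. In this list the calls of Zfp36l2 (adjusted p = 0.0553 to 0.0974) and Pcbp1 (0.0501 to 0.107) were lost without any 1 of the 4 mock libraries. Those of Zfp36 (0.0509 to 0.282) and Hnrnpd (0.112 to 0.373) in siCirbp were lost without any 1 of the 4 mock libraries or siCirbp replicate 2, and that of Zfp36 also without siCirbp replicate 1. The siCirbp calls of both were lost with no filter (0.0632 for Zfp36, 0.0791 for Hnrnpd) and with only the 2 compared groups (0.0513 and 0.0832). That of Hnrnpd was lost further with a pseudocount of 0.1 (0.0527), median centring (0.0632), quantile normalisation (0.0735) or the highest transcript alone (0.166).

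Of 27 genes of the NF-kB pathway, 4 rose and 9 fell at 32 °C, beside 13% and 19.8% of all tested genes, and the median log2 fold change was -0.28 over the list and -0.02 over all. Nfkb1 and Nfkb2, which encode the precursors of p50 and p52, fell (log2 fold changes -1.15 and -1.37, limma adjusted p = 0.00457 and 0.0049), while Tlr2, a receptor for bacterial lipoproteins, and its adaptor Myd88 rose (1.36 and 0.96, adjusted p = 0.00225 and 0.00453). In siCirbp Myd88 alone of the 27 rose (0.76, adjusted p = 0.0396) and none fell, beside 2.77% higher and 0.624% lower of all tested genes. The number called in siCirbp is thus near the background. Without mock 37 °C replicate 2 the calls at 32 °C of Nfkb1 (0.0567), Nfkb2 (0.0594) and Myd88 (0.0562) were lost, as they were without mock 32 °C replicate 2 (0.05, 0.0588 and 0.0642), and that of Myd88 without mock 37 °C replicate 1 (0.0505). The siCirbp call of Myd88 was lost without any 1 of the 4 mock or 2 siCirbp libraries (0.0521 to 0.354), with no filter (0.0592), with the highest transcript alone (0.0506), with the length trend removed (0.0714) or with only the 2 compared groups (0.0708).

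Of 24 interferon and STAT genes, 2 rose and 5 fell at 32 °C, with a median of -0.15. The number called is near the background of 13% higher and 19.8% lower of all tested genes. Isg15, an interferon-induced ubiquitin-like protein, rose (log2 fold change 1.16, limma adjusted p = 0.0133), and the repressor Irf2 (-0.99, adjusted p = 0.00464), the cytokine signalling inhibitor Socs1 (-0.96, adjusted p = 0.0143) and the kinase Tyk2 (-0.74, adjusted p = 0.018) fell. None of the 24 passed in siCirbp, where 2 had an unadjusted p under 0.05, beside 2642 of all 10901 tested genes. Leaving out any 1 of the 4 mock libraries ended the calls of Isg15 (0.0658 to 0.11) and Tyk2 (0.0801 to 0.143), and with the length trend removed Tyk2 was at -0.48 (0.0788). That of Irf2 was lost without mock 37 °C replicate 2 (0.0581), and that of Socs1 without mock 37 °C replicate 2 (0.12) or mock 32 °C replicate 1 (0.0909) or 2 (0.0944).

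Of 11 other secreted factors tested, Spp1, which encodes osteopontin, and the alarmin Il33 rose at 32 °C (log2 fold changes 1.01 and 0.64, limma adjusted p = 0.0492 and 0.049) and none fell, with a list median of 0.20. These 2 of 11 are near the background of 13% higher. Both calls were lost when any 1 of the 4 mock libraries was left out (0.128 to 0.241 for Spp1, 0.155 to 0.229 for Il33). After quantile normalisation the log2 fold change of Spp1 was 0, and its call was also lost with a pseudocount of 5 (0.0528), no filter (0.083), the highest transcript alone (0.076) or the length trend removed (0.0823). That of Il33 was lost with a pseudocount of 0.1 (0.079), no filter (0.069) or the length trend removed (0.0619), and its log2 fold change was 0.30 with a pseudocount of 5 and 1.80 with the highest transcript alone. Of 18 glycosaminoglycan carriers and chemokine-processing proteases, on which chemokines are held or cut, 1 rose and 5 fell, with a median of -0.45, beside 13% higher and 19.8% lower of all tested genes, so the number called is near the background of 32.8%. The heparan sulphate proteoglycan perlecan, Hspg2, was at 20.2 and 17.9 FPKM in mock 32 °C libraries, 50.3 and 53.2 in siCirbp libraries, 93.1 and 147 in siRbm3 libraries and 109 and 121 in mock 37 °C libraries. It fell at 32 °C (log2 fold change -2.53, adjusted p = 0.00147) and in siCirbp (-1.14, adjusted p = 0.0435). Sdc2 rose at 32 °C (1.24, adjusted p = 0.00237), and Sdc3 (-1.49, adjusted p = 0.00294) and the sulphotransferase gene Hs6st1 (-1.11, adjusted p = 0.0102) fell. Leaving out any 1 of the 4 mock libraries ended the call of Hs6st1 (0.0637 to 0.0859), and that of Hspg2 in siCirbp without any 1 of the 4 mock or 2 siCirbp libraries (0.0778 to 0.305). The siCirbp value of Hspg2 was -0.71 with the length trend removed (0.273), and its call was also lost with no filter (0.0785), the highest transcript alone (0.0511) or only the 2 compared groups (0.0595). Adam10 and Adam17, the proteases that shed Cx3cl1, were not among the genes called. In siRbm3, and between siCirbp and siRbm3, limma called 0 of the 113 genes tested in the 7 lists, with an unadjusted p under 0.05 for 11 in siRbm3 and 16 between siCirbp and siRbm3. Of all 10901 tested genes, 1451 and 1654 had such a p in these 2 comparisons, so the lists do not stand above the background.

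For the 6 genes averaging at least 5 FPKM, the tested genes with the most similar pattern of log2(FPKM + 1) over the 8 libraries were found by Pearson r, as a description over libraries that share 4 groups. They were Cav1 (0.97), Ctgf and Ocrl for Cxcl1, and Cav2 (0.98), Osmr and Il7 for Cxcl5. For Ccl2 they were Gas5 (0.98), Tgfbr1 and Otud4, and for Ccl7 Tmed5 (0.98), Tgfbr1 and Lnp, so Tgfbr1 is among the closest for both. For Cx3cl1 they were Zdhhc5, Git2 and Gcn1l1, each at 0.99 or above, and for Cxcl12 Arhgef25 (0.98), Bnip3 and Mxd1. Cav1 was at 431 and 451 FPKM in mock 32 °C libraries, 273 and 234 in siCirbp libraries, 305 and 357 in siRbm3 libraries and 473 and 443 in mock 37 °C libraries, the same order of groups by level as Cxcl1 except that 1 mock 32 °C library lay above 1 mock 37 °C library.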

How the data were processed

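Per the file headers, the authors deposited 1 table per RNA-seq library with an FPKM value, a coverage and a length for each of 28702 RefSeq transcripts. Per the submitters' processing notes, TopHat 1.1.2 placed the reads on mm9, and the version of the program that made the FPKM and the annotation release are not given in the sources used here, nor is how reads with several positions were counted. The coverage deposited by the authors is read depth per base, a signal not scaled by library size. Its constant ratio to FPKM, at 75 bases of coverage per read, gave the mapped fragments per library. Reads per gene came from the coverage at 75 bases per read, with 208.3 bases taken off the transcript length. Both values were chosen to give the most whole reads in genes of 1 transcript, while the labels give reads of 76 bases. Reads were then whole within 0.05 for 93.2% to 93.5% of transcripts under 100 reads in such genes. That share was maximised by the choice, so it is no separate check. The score the authors deposited for each PAR-CLIP site has no stated scale and served only as an alternative filter.

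FPKM were summed per gene. A model of 4 group means for log2(FPKM + 1) was fitted by limma 3.58.1 (R 4.3.3), with empirical Bayes moderation (trend, robust), over the 10901 genes averaging at least 1 FPKM, two-sided, with Benjamini-Hochberg adjustment over all of them and a threshold of 0.05. A fold change on this scale understates the change of low genes. Each gene had 1 spread estimated over all 4 groups, so its SE is the same in every comparison. The siRNA groups spread more than the mock groups, so for some genes this SE overstates the spread between mock libraries. An exact permutation test of 2 against 2 libraries cannot go below p = 0.333. Transcript shares were tested in genes of at least 5 FPKM with 2 or more transcripts of at least 10% each. A PAR-CLIP site counted when it overlapped a gene's span by at least 1 base. The fit was tested on simulated data. The 10 genes and all lists were chosen with earlier results of these data known. All 10 genes are named, with up to 4 genes per list and comparison of smallest adjusted p past the threshold, all other chemokine ligands and receptors above the filter, and the 3 most similar genes by Pearson r. Alternatives covered pseudocount, filter, scaling, transcript summing, transcript length, replicate number, the groups in the fit and each library left out. Leaving out both siRbm3 libraries was added after seeing the data.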

Additional observations from a re-analysis of the deposited data

Results flagged for a closer look

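Pairs of groups lay on opposite sides of mock 37 °C, in both libraries each, for 3 of the 10 genes, and the difference between their effects was not tested. Libraries that do not overlap mock 37 °C were common among all tested genes, at 84.9% at 32 °C, 60.4% in siCirbp and 50.5% in siRbm3. The share of all tested genes with groups on opposite sides was not counted, so no excess is read from these 3. Cxcl5 averaged 14.51 FPKM at 32 °C, 4.488 FPKM in siCirbp and 4.303 FPKM in siRbm3, so that both libraries at 32 °C were above, and all 4 siRNA libraries below, the 10.3 FPKM of mock 37 °C. Ccl7 averaged 25.81 FPKM at 32 °C and 8.975 FPKM in siRbm3, on either side of 15.4 FPKM in mock 37 °C. Cx3cl1 averaged 81.78 FPKM at 32 °C and 193.1 FPKM in siRbm3, on either side of 162 FPKM in mock 37 °C. With 2 libraries a group, no search for single outlying libraries was made.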

How the results depend on the processing

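With 2 libraries a group, counts of calls moved far more than fold changes did. With only the 2 compared groups in the fit, limma called 7557 genes and 6 of the 8 chemokines at 32 °C (3573 and 2 with all groups), 13 genes and 1 chemokine in siCirbp (370 and 2), 5 genes in siRbm3 (0) and 7 between siCirbp and siRbm3 (4). In siCirbp, no filter gave 57 genes and 1 chemokine, the highest transcript alone 217 and 1, removal of the length trend 92 genes, a pseudocount of 0.1 gave 1 chemokine, and leaving out both siRbm3 libraries gave 1611 and 4. In siRbm3, 1 gene was called with a pseudocount of 5, 2 with the highest transcript and 1 with the length trend removed, and between siCirbp and siRbm3 7 with no filter. With the replicate number as a block, 3 genes and 0 chemokines were called in siCirbp (adjusted p = 0.0552 for Cxcl1 and 0.0857 for Cxcl5, and 0.0617 to 0.0857 for Zfp36, Myd88, Hspg2 and Hnrnpd), and 4 transcript shares, not 7, at 32 °C. No label says that libraries with the same number share a batch or culture, and this was not tested. Their residual correlations over all tested genes ran from -0.153 to 0.0914. Leaving out 1 library at a time gave 395 to 5071 genes and 0 to 3 chemokines at 32 °C, 4 to 1612 and 0 to 4 in siCirbp, 0 to 951 and 0 to 1 in siRbm3, and 4 to 2132 and 0 to 2 between siCirbp and siRbm3. Changed transcript shares then numbered 0 to 7 at 32 °C, 0 to 7 in siCirbp, 0 to 2 in siRbm3 and 0 to 2 between siCirbp and siRbm3. A pseudocount of 5 kept the calls but shrank the log2 fold changes of Ccl9 (1.30), Socs1 (-0.58), Tyk2 (-0.47) and Sdc3 (-0.62) at 32 °C and of Cxcl5 in siCirbp (-0.70), since it weighs on low levels. The cause of these shifts was not tested.

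Signs turned for values that had not passed. With the length trend removed, the log2 fold change of Ccl5 at 32 °C was -0.25, of Ccl8 -0.015, of Ccl2 in siCirbp -0.040 and of Cirbp in siRbm3 -0.093. With the highest transcript alone Rbm3 was -0.67 at 32 °C and 0.11 in siRbm3, where it was 0.0032 with a pseudocount of 5 and 0.026 after quantile normalisation. Cxcl5 between siCirbp and siRbm3 was -0.036 after quantile normalisation. With 1 library left out, Ccl5 ranged from -9.4e-04 to 0.34 at 32 °C and from -0.56 to 0.33 in siRbm3, Ccl2 from -0.59 to 1.02 in siCirbp and from -1.38 to 0.10 in siRbm3, Ccl7 from -0.77 to 0.59 and Cx3cl1 from -0.37 to 0.12 in siCirbp. In siRbm3 Cxcl10 ranged from -0.21 to 1.00, Cirbp from -0.24 to 0.50 and Rbm3 from -0.48 to 0.42, and between siCirbp and siRbm3 Cxcl5 from -0.29 to 0.33. The log2 ratio of the 3173 nt Cxcl12 transcript ranged from -0.14 to 0.044 at 32 °C and from -0.24 to 0.19 between siCirbp and siRbm3, and that of the 1878 nt transcript from -0.045 to 0.62 in siCirbp and from -0.16 to 0.50 between siCirbp and siRbm3.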
